A study of Mus musculus with 12 samples.

Results

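The genes described here are 60 genes of rRNA transcription, rRNA processing and ribosome assembly, taken as a given list of gene names. All 60 were among the 17866 genes of the knockdown table and among the 19390 genes of the immunoprecipitation table. By role, 10 belong to the RNA polymerase I machinery, 9 to the small nucleolar ribonucleoproteins (snoRNPs), 23 to the small-subunit pathway and 15 to the large-subunit pathway, and 3 are nucleolar proteins with several roles.

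RNA came from mouse 2-cell embryos. Control embryos (labelled WT) and knockdown embryos (labelled Eif1ad3_KD) differed in the reagent injected, and the labels describe it in different ways. In the series design, 1-cell CF1 embryos received mRNA of RfxCas13d, an enzyme that cuts RNA, alone or with a guide RNA, whereas in the samples' protocol oocytes received control or Eif1ad3 antisense morpholino oligos together with Cas13d protein. The His and IgG libraries both came from embryos labelled Eif1ad3_OE, injected as zygotes with 200 ng/uL of mRNA for Eif1ad3 with a His tag. From lysates of 200 cells per replicate, RNA was recovered on magnetic beads bearing either an antibody to the tag or IgG, the negative control. Each of the 4 groups had 2 libraries, replicates A and B. The labels do not say that replicates came from separate cultures, so p-values measure the spread between these libraries, which may be technical.

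Ribosome assembly starts in the nucleolus, where RNA polymerase I transcribes a long rRNA precursor. Guide snoRNPs modify this precursor, a large processing complex cuts out the small-subunit rRNA, and other factors mature the large-subunit rRNA before both subunits are exported. The mouse zygote holds compact nucleolar precursor bodies with little rRNA synthesis, and transcription of rRNA resumes from about the 2-cell stage.

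Values are CPM (read counts scaled to library size), which compare 1 gene between libraries but not 1 gene with another, because gene length is not taken into account. The knockdown and control libraries held 18173916 to 27902514 reads each, and the His and IgG libraries 4678563 to 8364126. The targeted gene Eif1ad3 was at 839 and 663 CPM in the control libraries and at 277 and 377 CPM in the knockdown libraries. In IgG it was at 1.35 and 30.8 CPM, against 80.3 and 83.6 CPM in His. The 16 genes of a 2-cell embryo list, among them Zscan4d and Zfp352, were each at 10 CPM or more in all 4 knockdown and control libraries. Without Zbed3, the most abundant, they summed to 7370 and 7223 CPM in controls and to 5121 and 5460 CPM in knockdown A and B. This sum was lower in both, as was the median of the ribosome biogenesis genes given below. The part of the 2-cell embryo genes in the results was not tested. With Zbed3 the sums were 10237 and 9261 CPM in controls and 10450 and 6771 CPM in knockdown, and overlapped. Of the 16, 15 reached 1 CPM in each His library, against 8 and 10 in the IgG libraries. Of 23 oocyte genes, 19 to 21 were at 10 CPM or more in the libraries of the knockdown table. Their summed level was 8477 and 8005 CPM in controls A and B, 18373 CPM in knockdown A and 7804 CPM in knockdown B. Of 12 cumulus and granulosa cell genes 5 were listed, summing to 20.3 to 35.9 CPM. The 4 of 8 blood genes listed summed to 12.1 to 28.4 CPM, and the 3 of 7 sperm genes listed to 1.65 to 3.83 CPM. The 10 genes of a stress and apoptosis list summed to 292 and 277 CPM in controls and to 282 and 290 CPM in knockdown A and B, or without Mdm2, the most abundant, to 117 and 106 CPM and to 150 and 54.2 CPM.

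The first comparison asked whether transcripts of ribosome biogenesis differed between knockdown and control embryos. Of the 60 genes, 45 had a lower mean in knockdown on the log2(CPM + 1) scale, where 48.7% of all 13332 genes tested were lower. In 30 of the 60 both knockdown libraries lay below both controls, an arrangement found in 18.4% of all genes tested. In 2 genes, Gar1 and Rrs1, both knockdown libraries lay above both controls, an arrangement found in 18.1% of all genes. The median log2 difference of the 60 genes was -0.39, beside 0.02 for all genes tested.

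No gene of the list passed an adjusted p of 0.05 in limma, and neither did any of the 13332 genes (0%). At an unadjusted p under 0.05 in limma 8 of the 60 were lower, where 2.5% of all genes were, and 0 were higher, where 2.95% were. These 8 were Nolc1, Polr1e, Nob1, Nop2, Nop56, Nhp2, Nop16 and Nip7. In edgeR and DESeq2, run on reads recovered from the CPM values, 0 of the 60 passed, with 5 and 7 at an unadjusted p under 0.05. Of all 13332 genes 758 and 1029 reached that unadjusted threshold, in edgeR and DESeq2 in turn. DESeq2 called 0.113% of all genes, and limma with a replicate block called 0 of the 60 and 0.015% of all genes, or 0.0525% with median rescaling as well. Leaving out knockdown replicate A raised the count in limma to 19 of 60, of which 17 were lower and 2 higher, beside 15.1% of all genes (9% lower and 6.1% higher). Leaving out knockdown replicate B gave 2 of 60, Nolc1 and Nip7, both lower, beside 3.23% of all genes (0.913% lower and 2.32% higher). In each of these fits the lone knockdown library is assumed to vary as the 2 controls do. In bulk RNA, fewer cells with a transcript and less of the transcript per cell cannot be told apart.

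**Figure D1:**
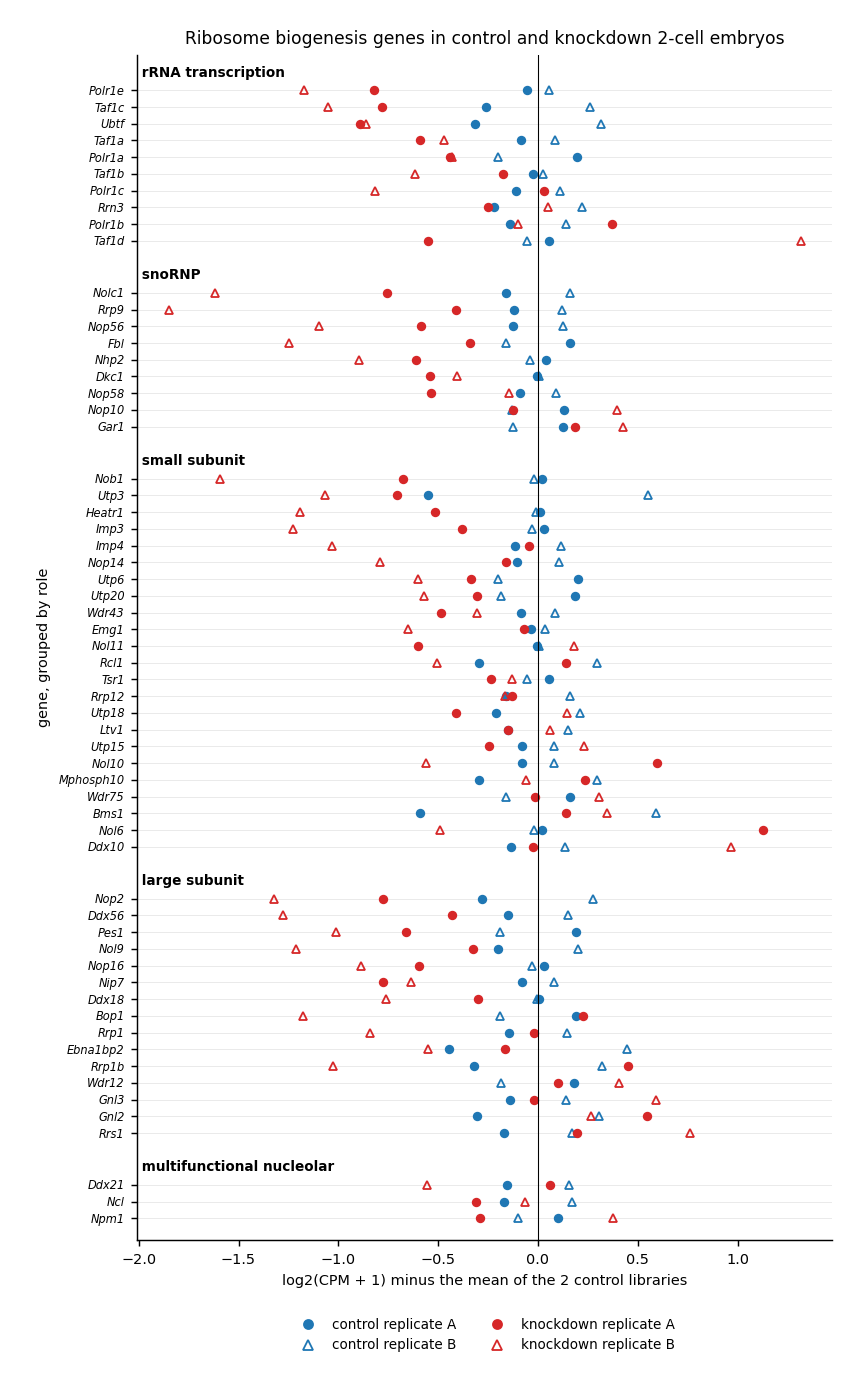
Level of each of the 60 ribosome biogenesis genes in every library of the knockdown experiment, as log2(CPM + 1) minus the mean of the 2 control libraries, grouped by role. Blue marks controls and red marks knockdown libraries, with filled circles for replicate A and open triangles for replicate B. In 30 genes both red points lie left of both blue points, and in 2 genes both lie right.

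The position of the list was read in each library, as the median difference of its genes from the control mean. This median was -0.09 and 0.09 in controls A and B, -0.30 in knockdown A and -0.56 in knockdown B. For all genes tested the medians were 0.14 in knockdown A and -0.17 in knockdown B. Both knockdown libraries therefore lay below both controls, and in each of them the list lay below all genes tested. In knockdown A 38 of the 60 genes were below both controls and 8 above both, and in knockdown B 41 were below and 11 above. Of the 13332 genes tested 3999 were below and 6061 above both controls in knockdown A, and 6227 below and 4440 above in knockdown B.

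The oocyte genes differed from this pattern between the knockdown libraries. The median of the 22 oocyte genes tested was 1.18 in knockdown A and -0.99 in knockdown B. Gdf9, a growth factor secreted by the oocyte, was at 1005 CPM in knockdown A and at 91.2 CPM in knockdown B, against 345 and 283 CPM in the controls. Zp3, a protein of the egg coat, was instead lower in both, at 75.05 and 60.58 CPM in knockdown A and B against 119 and 116 CPM in the controls. The median of the ribosome biogenesis genes was below both controls in both of these libraries. Whether oocyte RNA had a part in it was not tested beyond the values without each library.

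**Figure D2:**
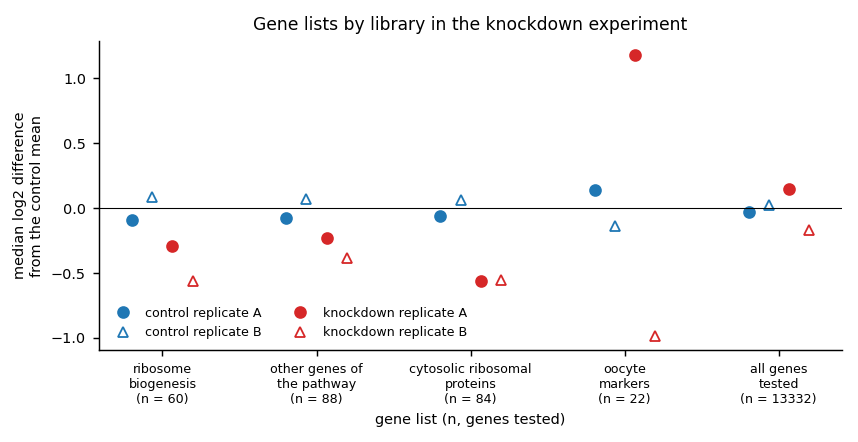
Median log2 difference from the control mean in each library of the knockdown experiment, for 5 lists of genes with the number of genes tested under each name. Both knockdown libraries lie below both controls for the ribosome biogenesis genes, at -0.30 and -0.56, while for the oocyte genes they lie on opposite sides of the controls, at 1.18 and -0.99.

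Promoter sequences of the genes with the largest differences between knockdown and control are shown first, since 45 of the 60 genes were lower. These are the 5 genes with the largest differences downward, followed by Gar1, 1 of the 2 genes whose knockdown libraries lay above both controls. Each is a RefSeq window of build GRCm38.p6, running from 250 bases before the gene's start to 50 after it. Capitals mark every match on either strand to CCGGAAG (the letters typical of ETS-family factors), CACGTG (an E-box, read by Myc and related factors), GCATGCGC (typical of NRF1) or CCAAT (typical of NF-Y).

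Nolc1 (chr19:46075597-46075896, plus strand): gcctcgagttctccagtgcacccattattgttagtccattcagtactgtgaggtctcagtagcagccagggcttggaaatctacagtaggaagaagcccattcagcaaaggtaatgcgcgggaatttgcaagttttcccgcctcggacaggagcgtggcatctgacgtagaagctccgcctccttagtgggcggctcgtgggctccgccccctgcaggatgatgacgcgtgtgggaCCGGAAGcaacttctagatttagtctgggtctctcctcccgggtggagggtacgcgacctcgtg
Nob1 (chr8:107424989-107425288, minus strand): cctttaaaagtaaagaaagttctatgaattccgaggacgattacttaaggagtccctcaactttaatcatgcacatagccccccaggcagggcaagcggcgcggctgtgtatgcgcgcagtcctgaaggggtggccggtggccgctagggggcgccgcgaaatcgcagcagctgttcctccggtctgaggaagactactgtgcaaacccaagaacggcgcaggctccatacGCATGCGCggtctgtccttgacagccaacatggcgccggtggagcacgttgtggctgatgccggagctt
Rrp9 (chr9:106477059-106477358, plus strand): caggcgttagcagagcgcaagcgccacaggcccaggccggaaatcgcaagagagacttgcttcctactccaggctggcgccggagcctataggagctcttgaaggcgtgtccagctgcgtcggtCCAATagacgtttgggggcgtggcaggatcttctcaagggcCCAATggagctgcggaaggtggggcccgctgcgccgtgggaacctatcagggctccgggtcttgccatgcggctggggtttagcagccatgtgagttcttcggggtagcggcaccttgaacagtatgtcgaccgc
Nop2 (chr6:125131633-125131932, plus strand): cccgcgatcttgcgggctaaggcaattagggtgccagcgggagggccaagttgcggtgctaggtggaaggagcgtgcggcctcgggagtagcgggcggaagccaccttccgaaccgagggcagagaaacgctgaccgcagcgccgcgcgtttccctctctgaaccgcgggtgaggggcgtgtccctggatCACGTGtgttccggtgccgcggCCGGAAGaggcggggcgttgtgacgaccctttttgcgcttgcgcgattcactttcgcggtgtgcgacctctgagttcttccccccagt
Polr1e (chr4:45018359-45018658, plus strand): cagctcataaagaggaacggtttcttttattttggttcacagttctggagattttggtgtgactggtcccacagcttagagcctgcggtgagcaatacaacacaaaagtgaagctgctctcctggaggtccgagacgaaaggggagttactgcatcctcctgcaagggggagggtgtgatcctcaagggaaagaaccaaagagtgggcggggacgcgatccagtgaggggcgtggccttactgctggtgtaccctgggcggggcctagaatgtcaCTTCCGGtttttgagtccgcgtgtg
Gar1 (chr3:129831347-129831646, minus strand): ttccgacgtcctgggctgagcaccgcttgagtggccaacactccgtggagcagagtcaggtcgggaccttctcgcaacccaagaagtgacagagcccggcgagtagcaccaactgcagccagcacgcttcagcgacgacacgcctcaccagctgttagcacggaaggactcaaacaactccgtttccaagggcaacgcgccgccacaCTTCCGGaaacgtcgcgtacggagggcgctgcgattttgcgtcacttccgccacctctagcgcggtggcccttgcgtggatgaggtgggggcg

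Nolc1, Nop2, Polr1e and Gar1 each hold the ETS-type letters, Nop2 also holds an E-box, Nob1 holds the NRF1-type letters and Rrp9 holds CCAAT at 2 places. The letters CCGGAAG or CTTCCGG thus stand in genes that were lower and in a gene that was not. RefSeq windows were found for 52 of the 60 genes, 63 windows in all. Of these 63 windows 23 (36.5%) held the ETS-type letters, against 8.86% of all 32851 windows and 16.5% of the 12907 windows of genes tested in the knockdown table. For the other motifs the share is given in the list's windows, in windows of genes tested and in all windows, in that order. The E-box stood in 15.9%, 9.58% and 7.15%, the NRF1-type letters in 6.35% (4 windows), 5.0% and 2.71%, and CCAAT in 39.7%, 39.2% and 37.4%. TATAAA stood in 4.76%, 8.25% and 13.6%, AAGATGG (typical of YY1) in 3.17%, 7.04% and 6.34%, and the GC box GGGCGG in 68.3%, 57.5% and 35.7%. For every motif searched, ETS-type included, except AAGATGG the list's share lay nearer to that of the genes tested than to that of all windows. In 2 of the 23 windows the ETS-type letters overlapped another of these motifs.

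The ETS-type letters did not divide the list by its difference between knockdown and control. The median log2 difference was -0.38 for the 22 genes with them (17 lower) and -0.43 for the 30 genes without (24 lower). With and without the E-box it was -0.30 (10 of 10 lower) and -0.41 (31 of 42). For the NRF1-type letters it was -0.88 (3 of 3) and -0.39 (38 of 49). The medians were -0.47 and -0.36 for CCAAT, -0.47 and -0.40 for TATAAA, -0.36 and -0.40 for AAGATGG and -0.36 and -0.45 for the GC box. None of these splits was tested. Median GC content was 58.3% in the list's windows, 52.7% in all windows and 59.3% in windows of genes tested.

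Of the 10 genes of the RNA polymerase I machinery 8 had a lower mean in knockdown, and in 6 both knockdown libraries lay below both controls, beside 48.7% and 18.4% of all genes. The median log2 difference was -0.41. Polr1e, a subunit found in polymerase I alone among the RNA polymerases, was at 230 and 248 CPM in controls and at 135 and 106 CPM in knockdown libraries. The groups did not overlap, and the knockdown mean was 50.3% of the control mean. Its log2 difference was -0.996 with a standard error (SE) of 0.33 (limma p 0.0167, adjusted p 0.859). Ubtf, the upstream binding factor that keeps rRNA genes open for transcription, was at 64.2 and 99.9 CPM in controls and at 42.7 and 43.7 CPM in knockdown. Both knockdown libraries were lower, with a log2 difference of -0.88 (SE 0.39, limma adjusted p 0.859).

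Polr1a and Polr1b, the catalytic subunits of RNA polymerase I, did not share this size of difference. Polr1a was at 47.5 and 35.9 CPM in controls and at 30.2 and 30.4 CPM in knockdown, with no overlap and a log2 difference of -0.43 (SE 0.40, limma adjusted p 0.901). Polr1b was at 22.9 and 27.9 CPM in controls and at 33.0 and 23.6 CPM in knockdown, so that the groups overlapped. Its log2 difference was 0.14 (SE 0.44, limma adjusted p 0.986). Rrn3, the factor that brings RNA polymerase I to the promoter, was at 63.7 and 86.6 CPM in controls and at 62.3 and 76.9 CPM in knockdown, and overlapped (log2 difference -0.10, SE 0.38, limma adjusted p 0.987). The signs of Polr1b and Rrn3 changed when single libraries were left out.

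The genes of the selectivity factor SL1, which places polymerase I on the rRNA promoter, were uneven. Taf1a was at 268 and 302 CPM in controls and at 188 and 205 CPM in knockdown. Taf1b was at 157 and 163 CPM in controls and at 142 and 104 CPM in knockdown. Both were lower without overlap, as was the scarce Taf1c, at 2.44 and 3.94 CPM in controls and at 1.40 and 0.990 CPM in knockdown. Taf1d had 641 and 595 CPM in controls, 421 CPM in knockdown A and 1539 CPM in knockdown B. The knockdown libraries of Taf1d lay on opposite sides of the controls.

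The snoRNP genes had the lowest median of the roles, at -0.76, and 7 of 9 had both knockdown libraries below both controls, an arrangement of 18.4% of all genes. The box C/D proteins place methyl groups on the riboses of rRNA. Their methyltransferase Fbl (fibrillarin) was at 57.5 and 45.9 CPM in controls and at 40.3 and 21.1 CPM in knockdown. The scaffold protein Nop56 was at 330 and 393 CPM in controls and at 239 and 168 CPM in knockdown. Its partner Nop58 was at 305 and 347 CPM in controls and at 224 and 295 CPM in knockdown. None of these 3 genes overlapped between the groups, and their knockdown means were 59.4%, 56.3% and 79.5% of the control means. In limma the log2 differences were -0.79 (SE 0.45, adjusted p 0.859), -0.84 (SE 0.34, adjusted p 0.859) and -0.34 (SE 0.32, adjusted p 0.903).

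The box H/ACA proteins, which convert uridines of rRNA to pseudouridine, differed among themselves. The pseudouridine synthase Dkc1 was at 690 and 694 CPM in controls and at 475 and 522 CPM in knockdown. Nhp2, which binds the guide RNA with it, was at 521 and 491 CPM in controls and at 330 and 271 CPM in knockdown. Both were lower without overlap, with log2 differences of -0.47 for Dkc1 (SE 0.30) and -0.76 for Nhp2 (SE 0.31), at a limma adjusted p of 0.859. Nop10 overlapped between the groups, at 244 and 205 CPM in controls and 205 and 295 CPM in knockdown. Gar1 was at 16.7 and 13.9 CPM in controls and at 17.5 and 20.8 CPM in knockdown, higher without overlap (log2 difference 0.31, SE 0.46, limma adjusted p 0.952). The 4 core proteins of 1 particle therefore included 2 that were lower and 1 that was higher without overlap.

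Nolc1, a nucleolar protein that binds and helps assemble snoRNPs, had the largest difference of the list. It was at 563 and 702 CPM in controls and at 372 and 204 CPM in knockdown. The groups did not overlap, and the knockdown mean was 288 ± 119 CPM against 632 ± 98.3 CPM in controls (SD, n = 2 each), or 45.6%. The log2 difference was -1.19 with an SE of 0.38 (limma p 0.0133, adjusted p 0.859). Rrp9, a protein of the U3 snoRNP, was at 124 and 147 CPM in controls, 102 CPM in knockdown A and 36.8 CPM in knockdown B. Both knockdown libraries were below both controls, with knockdown B the lower (log2 difference -1.13, SE 0.50, limma adjusted p 0.859). The difference was -0.41 without knockdown B and -1.85 without knockdown A.

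In the small-subunit pathway 17 of 23 genes had a lower mean in knockdown, 10 without overlap, beside 48.7% and 18.4% of all genes, and the median was -0.18. Both knockdown libraries were above both controls in 0 of the 23, against 18.1% of all genes. Nob1, the endonuclease that makes the last cut at the end of the small-subunit rRNA, was at 150 and 146 CPM in controls and at 92.5 and 48.5 CPM in knockdown. The knockdown mean was 47.6% of the control mean, with no overlap and a log2 difference of -1.13 (SE 0.41, limma p 0.0233, adjusted p 0.859). Heatr1, a large scaffold protein of the early processing complex, was at 76.6 and 75.6 CPM in controls and at 52.9 and 32.8 CPM in knockdown. It also did not overlap, with a log2 difference of -0.85 (SE 0.40, limma adjusted p 0.859).

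Genes of the same small complexes were again uneven. Imp3 and Imp4 bind the U3 RNA together with Mphosph10. Imp3 was at 337 and 324 CPM in controls and at 254 and 141 CPM in knockdown, without overlap. Imp4 was at 238 and 278 CPM in controls and at 249 and 125 CPM in knockdown, with overlap. Mphosph10 overlapped as well, at 183 and 277 CPM in controls and 266 and 216 CPM in knockdown. The other genes without overlap were Utp3, Utp6, Utp20, Nop14, Wdr43, Emg1 and Tsr1, with knockdown means at 50.4% (Utp3) to 87.8% (Tsr1) of the control means. Ltv1, Utp15, Utp18, Rrp12, Rcl1, Nol10, Nol11, Wdr75, Bms1, Ddx10 and Nol6 overlapped. Nol6 was near the lower limit of the test, at 1.76 and 1.69 CPM in controls and 4.95 and 0.935 CPM in knockdown.

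In the large-subunit pathway 11 of 15 genes had a lower mean in knockdown, 7 without overlap, beside the same 48.7% and 18.4%, and the median was -0.48. Nop2, a methyltransferase of the large-subunit rRNA, was at 88.5 and 131 CPM in controls and at 62.4 and 42.4 CPM in knockdown. Its log2 difference was -1.05 (SE 0.40, limma p 0.0299, adjusted p 0.859), without overlap. Pes1, Bop1 and Wdr12 form 1 complex that acts in maturing the large-subunit rRNAs. Pes1 was at 52.8 and 40.2 CPM in controls and at 28.7 and 22.3 CPM in knockdown, lower without overlap (log2 difference -0.84, SE 0.42, limma adjusted p 0.859). Bop1 was at 40.4 and 30.8 CPM in controls, 41.4 CPM in knockdown A and 15.0 CPM in knockdown B, and overlapped (log2 difference -0.48, SE 0.54, limma adjusted p 0.920). Wdr12 was at 51.1 and 39.4 CPM in controls and at 48.1 and 59.9 CPM in knockdown, and overlapped too (log2 difference 0.25, SE 0.39, limma adjusted p 0.954). Bop1 was 0.22 higher than controls when knockdown replicate B was left out.

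Nop16 and Nip7, both assembly factors of the large subunit, had close replicates. Nop16 was at 640 and 615 CPM in controls and at 415 and 339 CPM in knockdown. Nip7 was at 539 and 601 CPM in controls and at 332 and 365 CPM in knockdown. Their knockdown means were 60.1% and 61.2% of the control means, without overlap. Ddx18, Ddx56 and Nol9 were also lower without overlap, at 70.0%, 56.8% and 60.5% of the control means. Ebna1bp2, Rrp1, Rrp1b, Gnl2 and Gnl3 overlapped. Rrs1 was at 23.3 and 29.7 CPM in controls and at 30.3 and 45.2 CPM in knockdown, higher without overlap (log2 difference 0.48, SE 0.43, limma adjusted p 0.898).

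The abundant nucleolar proteins did not separate the groups. Npm1 (nucleophosmin), a histone and ribosome chaperone, was at 1512 and 1319 CPM in controls, 1155 CPM in knockdown A and 1831 CPM in knockdown B (log2 difference 0.04, SE 0.34, limma adjusted p 0.997). Npm1 has processed pseudogenes that could share its reads, so its values are uncertain. Ncl (nucleolin) was at 516 and 653 CPM in controls and at 467 and 555 CPM in knockdown (log2 difference -0.19, SE 0.31, limma adjusted p 0.961). Ddx21, an RNA helicase, was at 102 and 127 CPM in controls and at 119 and 77.2 CPM in knockdown. All 3 overlapped between the groups, and the sign of Npm1 changed when control replicate B or knockdown replicate B was left out.

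A second list of 88 genes of the same pathway, holding further polymerase subunits, processing factors and exosome genes, was read in the same way. Of the 88 genes 61 were lower in knockdown, with a median of -0.33. Lower without overlap were 36 (40.9%, against 18.4% of all genes) and higher without overlap 8 (9.09%, against 18.1%). None passed in limma, and 2 were lower and 0 higher at an unadjusted p under 0.05, where 2.5% and 2.95% of all genes were, so that the share lower was near that of all genes. Znhit3, a box C/D snoRNP assembly factor, was at 1277 and 1322 CPM in controls and at 592 and 597 CPM in knockdown (log2 difference -1.13, SE 0.29, limma adjusted p 0.859). Cd3eap, a polymerase I subunit, was at 47.8 and 91.9 CPM in controls and at 32.7 and 24.7 CPM in knockdown (-1.20, SE 0.45, limma adjusted p 0.859). At a mean of at least 10 CPM the largest differences upward were those of Rpf2, at 83.4 and 104 CPM in controls and 102 and 329 CPM in knockdown, and Bud23, at 3.44 and 16.1 CPM and 18.9 and 9.08 CPM. Both of these overlapped between the groups.

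For cytosolic ribosomal protein genes, the products assembled by this pathway, the median was -0.60, and of 84 tested 56 were lower and 3 higher without overlap. Mitochondrial ribosomal protein genes had a median of 0.12, and of 75 tested 6 were lower and 14 higher without overlap. Among all genes 18.4% were lower and 18.1% higher without overlap. No test of the difference between these lists was made.

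**Figure D3:**
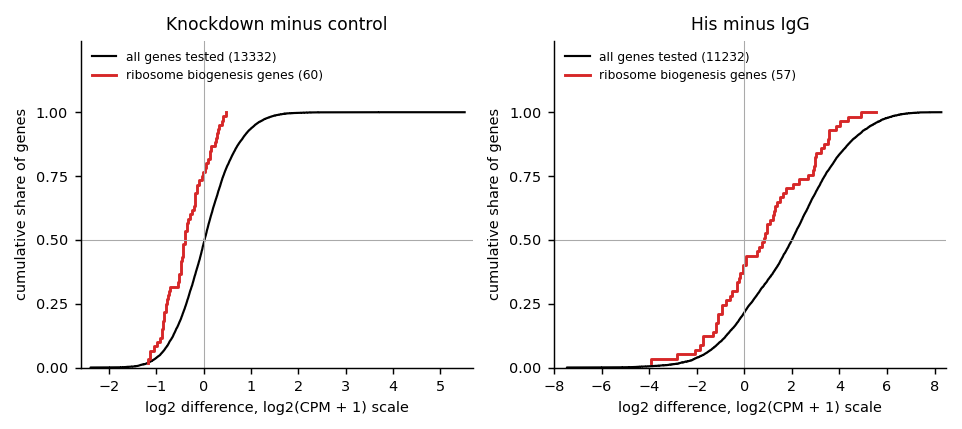
Cumulative share of genes by log2 difference on the log2(CPM + 1) scale, for all genes tested (black) and the ribosome biogenesis genes tested (red), in knockdown minus control (left) and His minus IgG (right). At the middle of the distribution (share 0.5) the red line lies left of the black line in both panels, with medians of -0.39 against 0.02 and of 0.88 against 2.01.

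The second comparison asked which of these transcripts were recovered with His-tagged Eif1ad3 rather than with IgG. Of the 60 genes 57 were tested, and Taf1c, Gnl2 and Ddx10 had too few reads. In limma 10 of 57 passed an adjusted p of 0.05, 9 higher and 1 lower in His, where 36.6% of all 11232 genes passed, 35.7% higher and 0.917% lower. At an unadjusted p under 0.05 in limma 9 were higher and 4 lower, against 42.1% and 2.49% of all genes. The median log2 difference was 0.88, beside 2.01 for all genes tested, a difference of -1.13. This difference was smaller with no filter on low values, at -0.39 (0.85 against 1.24). In 17 genes both His libraries lay above both IgG libraries, an arrangement found in 54.1% of all genes tested. In 11 genes both His libraries lay below both, an arrangement found in 9.06% of all genes. The number of calls depended on the test, with 0 of 57 in edgeR (11 at an unadjusted p under 0.05), 0 in limma after quantile normalization (13 unadjusted) and 16 in DESeq2, 8 in each direction. Of all 11232 genes 4592 reached the unadjusted threshold in edgeR and 3963 in limma after quantile normalization. DESeq2 called 49.1% of all genes, 42.4% higher and 6.65% lower, while edgeR and quantile normalization called 0%. Among genes averaging 5 CPM or more 6 of 52 passed in limma, beside 27% of all genes, and with the replicate block 8 of 57, beside 34.7%.

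Leaving out single libraries moved these calls further. In each such fit the lone library is assumed to vary as the 2 libraries of the other group do, although the IgG libraries lay further apart than the His libraries. Without IgG replicate A 41 of 55 genes tested passed in limma, and without IgG replicate B 43 of 57 did, beside 69.1% and 70% of all genes. Without His replicate A 1 of 50 passed and without His replicate B 0 of 48 did (2 at an unadjusted p under 0.05 each), beside 0.0889% and 0.0888% of all genes. Without His replicate A the median of the list was 0.56 beside 0.82 for all genes, and without His replicate B 0.38 beside 0.82, differences of -0.26 and -0.44. Without IgG replicate A it was 0.51 beside 2.17, and without IgG replicate B 0.88 beside 2.42. Quantile normalization, edgeR and DESeq2 turned it negative, to -0.42, -0.21 and -0.42, while it stayed below the median of all genes, which was then 0.65, 1.56 and 1.30.

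The spread between the IgG libraries was wide for the list. Across all genes tested the IgG replicates correlated at 0.465 and the His replicates at 0.895, on the log2(CPM + 1) scale. Of the 57 genes tested 11 had no read in IgG replicate A and 14 none in IgG replicate B, against 0 in either His library. Among all genes tested 44.6% and 42.6% had no read in the IgG libraries, and 0.80% and 0.92% had none in His replicates A and B. In 8 genes 1 IgG library had at least 100 CPM and the other under 1 CPM, namely Nop2, Nop10, Polr1b, Taf1a, Nol6, Utp15, Ebna1bp2 and Bms1. Nol6, for example, was at 809 CPM in IgG replicate A and had no read in replicate B, and Polr1b was at 0 and 321 CPM. No gene of the list differed in this way between the His libraries, and neither did any of the 11232 genes tested. Of all genes tested 9.58% differed in this way between the IgG libraries.

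**Figure D4:**
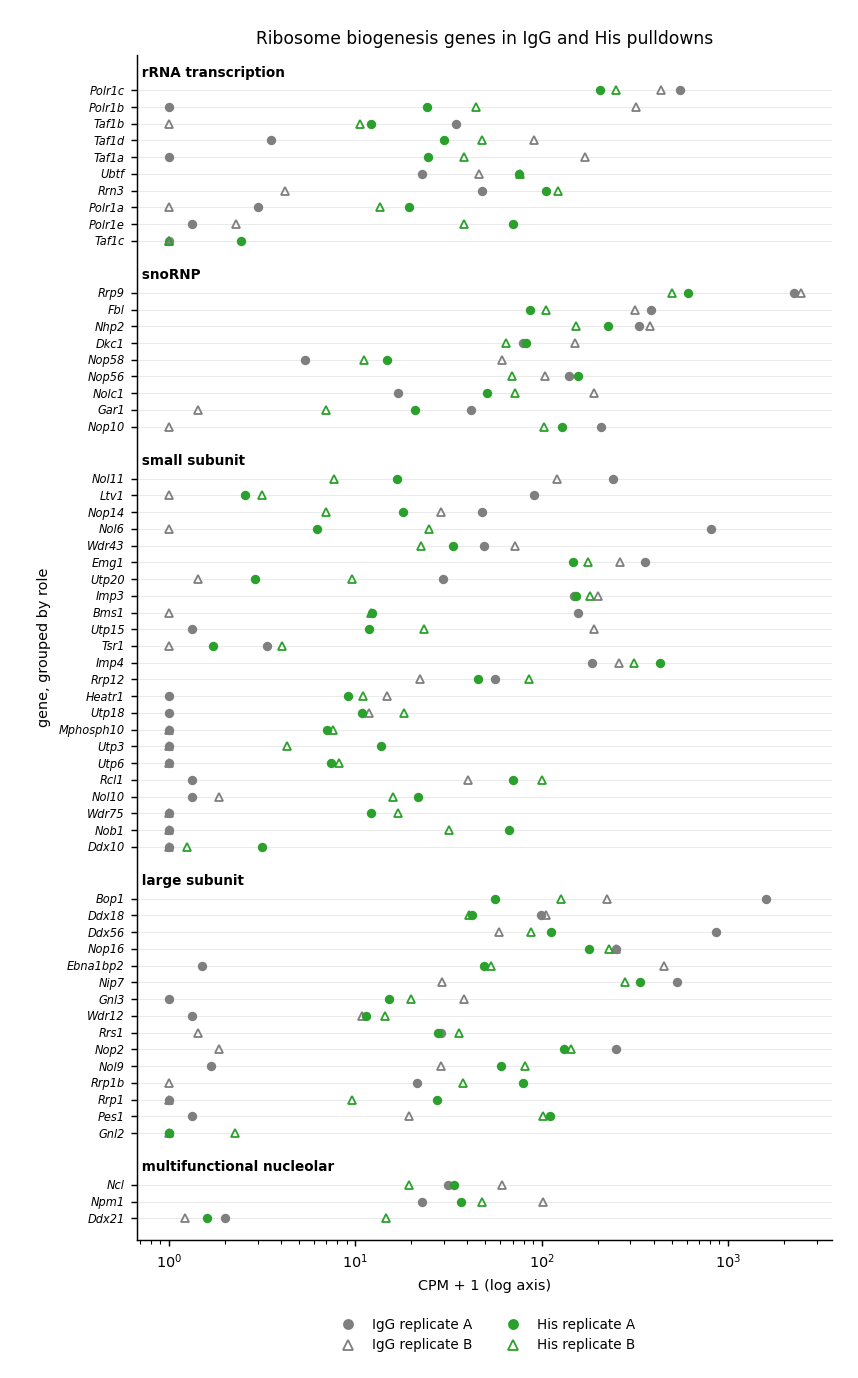
Level of each of the 60 ribosome biogenesis genes in the IgG (grey) and His (green) libraries, as CPM + 1 on a log axis, grouped by role, with filled circles for replicate A and open triangles for replicate B; points at 1 had no read. Grey points of 1 gene often lie far apart, as for Nol6 at 809 and 0 CPM, while both grey points of Rrp9 lie right of both green points.

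Rrp9, the U3 snoRNP protein, was the 1 gene called lower in His. It was at 2254 and 2456 CPM in the IgG libraries (13357 and 11492 reads) and at 607 and 502 CPM in the His libraries. The IgG mean was 2355 ± 143 CPM and the His mean 555 ± 74.2 CPM (SD, n = 2 each), or 23.6% of IgG. Its log2 difference was -2.09 with an SE of 0.14 (limma adjusted p 0.00997), and it did not pass with edgeR (adjusted p 0.0547), quantile normalization (0.0542) or without His replicate B (0.0571). In the separately normalized knockdown table Rrp9 was at 124 and 147 CPM in control embryos, a level that cannot be set directly against these.

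Of the other snoRNP genes, Fbl and Nhp2 had both His libraries below both IgG libraries. Fbl was at 384 and 317 CPM in IgG against 86.0 and 104 CPM in His, without overlap (log2 difference -1.87, SE 0.49, limma adjusted p 0.0644). Nhp2 was at 331 and 382 CPM in IgG against 225 and 152 CPM in His, without overlap. Nop56 was at 139 and 104 CPM in IgG against 156 and 68.7 CPM in His (-0.21, SE 0.78, limma adjusted p 0.886). Nop58 was at 4.39 and 60.7 CPM in IgG against 13.9 and 10.1 CPM in His (-0.50, SE 1.53, limma adjusted p 0.860). Dkc1 was at 78.1 and 151 CPM in IgG against 81.1 and 63.4 CPM in His (-0.59, SE 0.78, limma adjusted p 0.671). These 3 overlapped, as did Nolc1, Gar1 and Nop10. Of the 9 snoRNP genes 6 had a lower mean log2 value in His, where 21.5% of all genes did, with a median of -0.50. In 0 of the 9 both His libraries lay above both IgG libraries, against 54.1% of all genes.

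In the large-subunit pathway Bop1 had the largest difference toward IgG, at 1599 and 224 CPM in IgG and 55.6 and 127 CPM in His. The groups did not overlap, but the IgG libraries differed widely (log2 difference -2.82, SE 1.24, limma adjusted p 0.196). Its partners Pes1 and Wdr12 went the other way. Pes1 was at 0.338 and 18.4 CPM in IgG against 110 and 100 CPM in His (log2 difference 4.38, SE 1.68, limma adjusted p 0.149). Wdr12 was at 0.338 and 9.83 CPM in IgG against 10.4 and 13.4 CPM in His (1.75, SE 1.26, limma adjusted p 0.413). Neither overlapped, and neither passed. Rrp1 passed, with 0 reads in both IgG libraries and 26.4 and 8.59 CPM in His (log2 difference 4.02, SE 0.66, limma adjusted p 0.0218). It was at least 30.5-fold higher when IgG is set at a floor of 3 reads per library. This floor covers counting error only and not the spread between the IgG libraries. The call of Rrp1 was lost in 3 of the 13 other settings in which it was tested. Rrp1b was at 20.4 and 0 CPM in IgG against 78.3 and 36.9 CPM in His, without overlap (3.57, SE 1.89, limma adjusted p 0.270).

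Of the small-subunit genes 6 of 22 tested passed, all higher in His, where 35.7% of all genes passed higher, with 9 of 22 lower in mean and a median of 0.63. Each of the 6 was below 1 CPM in both IgG libraries and entered the test through its His values. Where both IgG values are 0, the IgG libraries add no spread to the SE. Nob1 had 0 reads in both IgG libraries and was at 66.0 and 30.9 CPM in His, at least 84.5-fold higher by the same floor (log2 difference 5.53, SE 0.61, limma adjusted p 0.0107). That floor, used for the folds below as well, covers counting error only and not the spread between the IgG libraries. Wdr75 was at 0 CPM in IgG against 11.1 and 15.9 CPM in His, at least 23.6-fold higher (3.84, SE 0.35, limma adjusted p 0.00997). Mphosph10, Utp3 and Utp6 were likewise without a read in IgG. In His, Mphosph10 was at 6.10 and 6.57 CPM (log2 difference 2.87, SE 0.23, limma adjusted p 0.00997). Utp3 was at 12.7 and 3.28 CPM, at least 13.9-fold higher (2.94, SE 0.68, limma adjusted p 0.0494). Utp6 was at 6.46 and 7.20 CPM, at least 11.9-fold higher (2.97, SE 0.24, limma adjusted p 0.00997). The call of Utp3 was lost in 6 of the 12 other settings in which it was tested, and those of Mphosph10 and Utp6 in 2 of 12 each. Those of Nob1 and Wdr75 were lost in 2 of 13 each. Nol10 was at 0.338 and 0.855 CPM in IgG against 20.8 and 15.0 CPM in His (log2 difference 3.57, SE 0.46, limma adjusted p 0.0134). It did not pass with edgeR (adjusted p 0.0547) or with the replicate block and median rescaling (0.0546), and its difference was -0.012 (0.994) after quantile normalization. Nol11, a factor of early precursor processing, went toward IgG, at 240 and 121 CPM in IgG and 15.7 and 6.69 CPM in His, without overlap (log2 difference -3.92, SE 1.00, limma adjusted p 0.0610). Nop14 was at 46.7 and 28.0 CPM in IgG against 17.1 and 5.94 CPM in His (-1.73, SE 0.98, limma adjusted p 0.30), also without overlap. Rcl1 was at 0.338 and 39.1 CPM in IgG against 68.9 and 100 CPM in His (3.52, SE 2.06, limma adjusted p 0.316). Heatr1 overlapped, at 0 and 13.9 CPM in IgG and 8.13 and 9.98 CPM in His (1.38, SE 1.56, limma adjusted p 0.616).

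In the RNA polymerase I machinery 2 of 9 genes tested passed, both higher, beside the same 35.7%. Polr1e was at 0.338 and 1.28 CPM in IgG against 69.0 and 37.5 CPM in His, with 2 and 6 reads in the IgG libraries (log2 difference 4.89, SE 0.72, limma adjusted p 0.0171). Its call was lost in 6 of 15 other settings, among them the replicate block (adjusted p 0.0532), edgeR (0.0647), quantile normalization (0.185) and each His replicate left out (0.99996 and 0.99999). Polr1a was at 2.03 and 0 CPM in IgG against 18.5 and 12.5 CPM in His (3.22, SE 0.75, limma adjusted p 0.0498), and it did not pass in 12 of 15 other settings, the replicate block among them (adjusted p 0.0557). Polr1c lay below IgG without overlap, at 550 and 438 CPM in IgG and 206 and 249 CPM in His (limma adjusted p 0.0905). Polr1b overlapped (0.88, SE 3.32, limma adjusted p 0.889), and its sign followed single IgG libraries. Rrn3 was at 46.9 and 3.21 CPM in IgG against 105 and 122 CPM in His (3.01, SE 1.58, limma adjusted p 0.267). Ubtf was at 21.8 and 44.9 CPM in IgG against 74.8 and 75.9 CPM in His (1.24, SE 0.89, limma adjusted p 0.414). Both were higher without overlap and did not pass.

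Ncl was at 30.4 and 60.5 CPM in IgG against 33.0 and 18.4 CPM in His, and Npm1 was at 21.9 and 100 CPM in IgG against 36.0 and 47.1 CPM in His. Both overlapped, with log2 differences of -0.77 for Ncl (SE 0.96, limma adjusted p 0.648) and -0.19 for Npm1 (SE 1.17, limma adjusted p 0.935). Among the genes not yet given, Nop16, Wdr43, Ddx18 and Emg1 lay below IgG without overlap, with His means at 81.5%, 45.2%, 40.2% and 52.2% of the IgG means, and Imp4 and Nol9 lay above IgG without overlap. Ddx10, which had too few reads for the test, had 0 reads in both IgG libraries and 18 and 2 reads in the His libraries. The others overlapped. None of the 9 genes higher in His had 1 CPM or more in both IgG libraries, so each entered the test through its His values. Summed over the 60 genes, the level was 9970 and 7320 CPM in the IgG libraries and 4308 and 4111 CPM in the His libraries. The sum was thus higher in IgG although 35 of 57 genes had a higher mean log2 value in His. The other 22 (38.6%) were lower, where 21.5% of all genes were. CPM is a share of each library, and fewer genes reached 1 CPM in IgG, 5148 and 5564 against 12246 and 12270 in His. The part of this difference in the levels was not tested. The summed oocyte genes were higher in His, at 7047 and 8102 CPM in IgG and 17409 and 17597 CPM in His. The 4 of 7 sperm genes listed summed to 47.4 and 54.3 CPM in IgG and 1.08 and 7.20 CPM in His, all from Prm2, and the 5 of 8 blood genes listed were at 0 in IgG and summed to 80.0 and 99.5 CPM in His. The 9 of 12 cumulus and granulosa genes listed summed to 5.91 and 0 CPM in IgG and to 54.0 and 59.6 CPM in His. The 10 genes of a stress and apoptosis list summed to 192 CPM in IgG replicate A, of which 183 CPM was Jun, to 5.56 CPM in IgG replicate B and to 383 and 392 CPM in His. The part of these genes in the result was not tested.

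Of the 88 other genes of the pathway 84 were tested between His and IgG, and 26 passed higher and 0 lower in limma, where 35.7% of all genes passed higher and 0.917% lower. The median was 1.57, beside 2.01 for all genes. Wdr74 and Ddx51 had the largest differences upward, each without a read in IgG, at 54.8 and 40.7 CPM and at 37.5 and 64.2 CPM in His (limma adjusted p 0.00997 and 0.00997). Znhit6 was at 132 and 150 CPM in IgG against 20.3 and 12.1 CPM in His (-3.08, SE 0.85, limma adjusted p 0.0734). Utp4 was at 584 and 171 CPM in IgG against 33.4 and 61.5 CPM in His (-2.78, SE 0.96, limma adjusted p 0.120). Both lay below IgG without overlap and did not pass.

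Side by side, several genes that were lower in knockdown differed in how they were recovered. Nob1 and Polr1e, at 47.6% and 50.3% of control in knockdown, were called higher in His than in IgG, but both entered that test through their His values. The call of Polr1e was lost in 6 of 15 other settings, and that of Nob1 in 2 of the 13 in which it was tested. Nob1 was not tested with either His replicate left out. Rrp9, at 51.0% of control in knockdown (36.8 CPM in knockdown B and 102 CPM in knockdown A), was called lower in His. Nolc1, at 45.6% of control, was at 15.9 and 191 CPM in IgG against 49.7 and 70.7 CPM in His, and overlapped (limma adjusted p 0.980). The knockdown differences of these 4 genes did not pass.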

How the data were processed

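RNA-seq and RIP-seq (sequencing of RNA recovered with a protein) were made on 2-cell embryos with Smart-seq2 and Nextera XT, per the labels' protocols. The submitters' processing notes name Trim Galore 0.6.7, HISAT2 2.2.1, featureCounts 2.0.1, edgeR and the build GRCm39. The deposited values are CPM, scaled by the authors within each table. In every library 100% of values were whole multiples of 1 read (tolerance 0.01 reads), so reads were recovered. PCR reads are not independent molecules, and floors cover counting error only. Of 12 samples 8 were used. The names of 4 value columns fit both the input and the total samples, and these were not used here.

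The test used log2(CPM + 1) and limma 3.58.1 (R 4.3.3, mean-variance trend, two-sided, Benjamini-Hochberg over all genes tested). A gene entered it if 2 or more of the libraries compared had 1 CPM or more. Fold changes on this scale understate the change of low genes. edgeR 4.0.16 and DESeq2 1.42.0 on recovered reads, other pseudocounts, filters and scalings, a replicate block and each replicate left out were the alternatives. The genes and lists were chosen with earlier results of these data known. Full values are given for up to 5 genes with the largest difference in each direction (mean of at least 10 CPM, no overlap), the genes called and 15 leading genes.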

Additional observations from a re-analysis of the deposited data

How the results depend on the processing

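In knockdown against control, the median of the 60 genes (-0.39) ranged from -0.40 to -0.34 over the settings with all 4 libraries and from -0.56 to -0.30 with 1 library left out. The count of 0 genes called (726 at an unadjusted p under 0.05 in limma) was 15 by DESeq2, 2 under the replicate block, 7 if medians were also rescaled, and 0 to 1894 with 1 library left out; of the 60 genes 0 to 19 were then called. Letters A and B give no pairing beyond a shared letter. Same-letter deviations correlated across genes at 0.146 in the knockdown table and at -0.014 in the immunoprecipitation table. With the replicate block 0 of the 60 were called in knockdown and 8 in His against IgG.

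In His against IgG, the 4111 calls fell to 2356 for genes averaging 5 CPM or more, 0 with quantile normalization (3963 unadjusted, smallest adjusted p 0.0542), 0 with edgeR (4592 unadjusted, smallest adjusted p 0.0547) and 6 to 7679 with 1 library left out. The 10 genes of the list called became 6, 0, 0 and 0 to 43 in those settings and 16 with DESeq2, which called 4766 genes higher and 747 lower against 4008 and 103. The median of the list (0.88) was 1.32 and 0.16 at pseudocounts of 0.1 and 5, 0.57 after median rescaling (the same in the block fit), -0.42 after quantile normalization, -0.21 by edgeR, -0.42 by DESeq2 and 0.38 to 0.88 with 1 library left out. The median of all genes (2.01) was 3.66 and 0.94 at those pseudocounts, 1.24 with no filter, 1.77 after median rescaling, 0.82 without either His library in turn and up to 2.42 without an IgG library. The list lay below it in every setting run, by a log2 difference of -2.34 (pseudocount 0.1) to -0.26 (without His A).

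Settings were run for the genes given with full values, 21 in knockdown and 27 in His against IgG, and these changed sign in 20 cases. The other genes of the list were not followed singly. In knockdown these were Polr1b without control A (-0.0010) and knockdown A (-0.098, range with 1 library left out to 0.37), Rrn3 without control B (0.12, from -0.32) and knockdown A (0.050), Npm1 without control B (-0.056) and knockdown B (-0.29, to 0.37), and Bop1 without knockdown B (0.22, from -1.18). In His against IgG they were Polr1b at a pseudocount of 5 (-0.12), with quantile normalization (-0.31), edgeR (-2.16), DESeq2 (-2.37) and without IgG A (-3.29, to 5.04), Nop56 with quantile normalization (0.055) and without His B (0.37, from -0.80), Heatr1 with quantile normalization (-0.60) and without IgG A (-0.57, to 3.32), Nol10 (-0.012) and Wdr12 (-1.22) with quantile normalization, and Nop58 (1.25, from -2.26) and Npm1 (0.88, from -1.26) without IgG B. The cause was not tested. The planned comparisons of Input with His and with total were not run. Of the 60 genes 58 reached 1 CPM in all 4 knockdown and control libraries.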
